A study of Mus musculus with 6 samples.

Results

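Control epithelial cluster 3 was a population of glandular epithelial cells from the mouse uterus, 1 of the 15 clusters into which the study divided the epithelium of its corn oil (CO) single-cell library, and the study named it developing gland. Its members were taken by the cluster number deposited with each cell, and all 204 cells that carried number 3 also had a column of counts. They made up 7.90% (exact Clopper-Pearson 95% interval 6.89 to 9.01%) of the 2583 CO epithelial cells with counts, and 48.9% of the 417 cells in gland clusters 3, 8, 13 and 14.

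All mice were of the outbred CD-1 strain, and uteri were taken when the mice were 12 months old. CO mice had received corn oil under the skin on days 1 to 5 of life and were in estrus at collection. DES mice had received diethylstilbestrol, a synthetic estrogen, in that oil at 1 mg/kg/day on the same days, and were in persistent estrus. Single cells came from 1 CO library that pooled 2 mice and 1 DES library that pooled 4 mice, so mice within a library cannot be told apart and no comparison between cells below carries a test. Frozen longitudinal sections for spatial transcriptomics came from 2 CO mice (CO A and CO B) and 2 DES mice (DES A and DES B). Of these, CO B had a tissue fold, and DES B yielded poorly separated spot clusters in the study.

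Endometrial glands are tubes that bud from the luminal epithelium after birth and secrete the proteins on which embryo implantation depends. Their formation requires FOXA2, a pioneer transcription factor that marks uterine glands, together with Wnt signals exchanged between epithelium and stroma. Estrogen exposure in the neonatal window is known to disturb that process. The study separated developing gland cells (clusters 3, 8 and 14, with 14 as glandular progenitors) from mature gland cells (cluster 13), and this distinction set the comparisons made here.

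Cluster 3 cells held 4886738 UMIs (unique molecular identifiers, 1 per captured RNA molecule), between 3255 and 80796 in a cell, with medians of 18535.5 UMIs and 3909.5 genes. The median was 14735 UMIs in the 123 cells of cluster 8, 12201 in the 62 cells of cluster 13, 27780 in the 28 cells of cluster 14 and 25654 in the 2095 luminal cells (the 10 clusters other than 3, 8, 12, 13 and 14). The median share of mitochondrial UMIs was 7.30% in cluster 3 and between 7.09% and 10.3% in those other groups. CO and DES libraries shared 180 cell barcodes, of which 3 belonged to cluster 3, and none of the DES cells with those 3 barcodes was in an epithelial cluster. Levels below are given as CPM, the summed UMIs of a gene in a group of cells divided by all UMIs of that group and brought to one common total, with exact Poisson 95% intervals that cover counting error only. Because the 3′ kit tags each molecule once at its end, these levels were not divided by transcript length.

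The label was checked against its 5 markers. These were Klk1 (tissue kallikrein, a secreted serine protease, chr7:44225360-44229618), Napsa (the aspartic protease napsin A, chr7:44572380-44586862), S100g (the calcium-binding protein calbindin-D9k, chrX:162961992-162964599), Sult1d1 (a cytosolic sulfotransferase, chr5:87554645-87569027) and Gpx3 (the secreted glutathione peroxidase, chr11:54902453-54910377), in GRCm38 coordinates of the whole gene. Counted on all UMIs of a cell, without thinning to a common depth, all 5 were detected together in 159 of 204 cluster 3 cells (77.9%, interval 71.6 to 83.4%). At least 4 of them were detected in 203. The 5 were found together in 83 of 123 cluster 8 cells (67.5%), 26 of 28 cluster 14 cells, 1 of 62 cluster 13 cells, 28 of 2095 luminal cells (1.34%) and 8 of 4608 DES epithelial cells (0.174%). Mesothelial cells of the CO library, which line the outside of the organ, held all 5 in 0.117% of cells. They served as a background for free RNA except for Klk1 and Gpx3, so this share is not such a background. They had a median of 10436 UMIs, and such shares move with depth. The marker set therefore described clusters 3, 8 and 14 alike and did not set cluster 3 apart from 8.

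The gland factor Foxa2 itself was nearly absent. It stood at 4.09 CPM in cluster 3 against 82.0 CPM in cluster 13, and after each cell was thinned to 3000 UMIs it was seen in 2 of 204 cluster 3 cells (0.980%, interval 0.119 to 3.5%). The luminal share was 2.36%, so Foxa2 in cluster 3 was not detectable above other epithelium at this depth.

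Promoters of marker and leading genes are shown because several of them hold the sequence that FOXA factors recognise. Each is the RefSeq GRCm38.p6 sequence from 250 bases before to 50 bases after the start of the gene, 5′ to 3′ on the strand of the gene, with capitals marking a match to TGTTTAC on either strand. The start used for Hsd11b1 lies inside the GENCODE gene (chr1:193221634-193264075) and is thus an internal one. S100g and Sult1d1 stand for label markers with a match, Hsd11b1 for a leading gene with one, and Klk1 for a marker with no match.
S100g, chrX:162964550-162964849, minus strand: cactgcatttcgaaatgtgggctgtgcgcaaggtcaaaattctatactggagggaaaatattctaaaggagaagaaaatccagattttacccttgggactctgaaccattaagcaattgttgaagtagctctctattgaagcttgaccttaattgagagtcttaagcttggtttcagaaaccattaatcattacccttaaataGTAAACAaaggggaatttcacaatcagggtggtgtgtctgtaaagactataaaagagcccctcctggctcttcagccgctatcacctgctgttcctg
Sult1d1, chr5:87568957-87569256, minus strand: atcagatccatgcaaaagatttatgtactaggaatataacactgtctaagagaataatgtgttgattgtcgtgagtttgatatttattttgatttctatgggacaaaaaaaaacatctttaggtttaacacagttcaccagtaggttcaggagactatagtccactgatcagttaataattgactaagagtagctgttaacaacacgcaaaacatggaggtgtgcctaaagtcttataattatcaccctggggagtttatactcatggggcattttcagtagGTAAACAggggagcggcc
Hsd11b1, chr1:193242311-193242610, minus strand: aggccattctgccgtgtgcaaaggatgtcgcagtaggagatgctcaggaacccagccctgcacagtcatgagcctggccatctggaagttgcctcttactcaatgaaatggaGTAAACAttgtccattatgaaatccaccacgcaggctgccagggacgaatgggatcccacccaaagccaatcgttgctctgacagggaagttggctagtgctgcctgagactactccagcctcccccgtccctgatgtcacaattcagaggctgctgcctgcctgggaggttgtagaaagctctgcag
Klk1, chr7:44225110-44225409, plus strand: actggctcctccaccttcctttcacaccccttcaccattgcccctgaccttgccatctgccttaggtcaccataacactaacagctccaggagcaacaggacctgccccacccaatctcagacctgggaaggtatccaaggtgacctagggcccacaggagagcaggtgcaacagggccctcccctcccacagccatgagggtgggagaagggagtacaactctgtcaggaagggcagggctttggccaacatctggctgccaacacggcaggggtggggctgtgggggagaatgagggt

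Of the 8 developing gland genes, 6 had a promoter in the table and 2 of these held TGTTTAC, as did 1 of 11 among the 15 leading genes given below, against 3.66% of all 32544 promoters of that length. The hypoxia motif ACGTG was found in 1 of the 6 and in 4 of the 11 (Dusp2, Abcb1b, Cyp26a1 and Scg5), against 19.7% of all promoters. Neither the estrogen response element, in its full palindromic form (0.0707% of promoters) nor the TCF/LEF motif CTTTGAT (3.73%) was found in either set. The motifs were searched on both strands, and ACGTG can overlap its own reverse complement. With so few promoters these are descriptions of sequence, and none of them was tested.

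The list called developing gland genes here joins Klk1, Napsa, S100g, Hif1a, Prap1 and Wnt7b, which served the study as developing gland markers, with Sult1d1, a general gland marker, and Gpx3, a gene of all gland clusters. All 8 were at least 2-fold higher in cluster 3 than in all other CO epithelial cells, with a median log2 ratio of 3.71 against -0.13 over all 8347 genes that reached 10 CPM in either group. Of those genes, 10.2% were at least 2-fold higher and 14% at least 2-fold lower. Luminal cells make up most of the other cells, and against the mean of the other clusters, each weighted equally, the median of the 8 was 2.32. The study named clusters of these same cells by genes of this list, some of them known gland markers and others read from these cells, so its direction is no independent evidence. The most abundant member was Prap1, which encodes a secreted proline-rich acidic protein of epithelia, at 49058 CPM in cluster 3 (48862 to 49254) and 4298 CPM in the other cells. That level amounted to 4.91% of all cluster 3 UMIs. S100g stood at 7162 CPM against 452, and Napsa at 2347 against 110. Gpx3 stood at 942 CPM against 62.8, Sult1d1 at 727 against 74.8 and Klk1 at 530 against 24.4. Hif1a, the oxygen-regulated subunit of the hypoxia-inducible factor, differed least (244 against 103), followed by the ligand gene Wnt7b (120 against 29.2). Klk1 belongs to a cluster of closely similar kallikrein genes, so reads shared with its paralogs make its level uncertain.

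**Figure D1:**
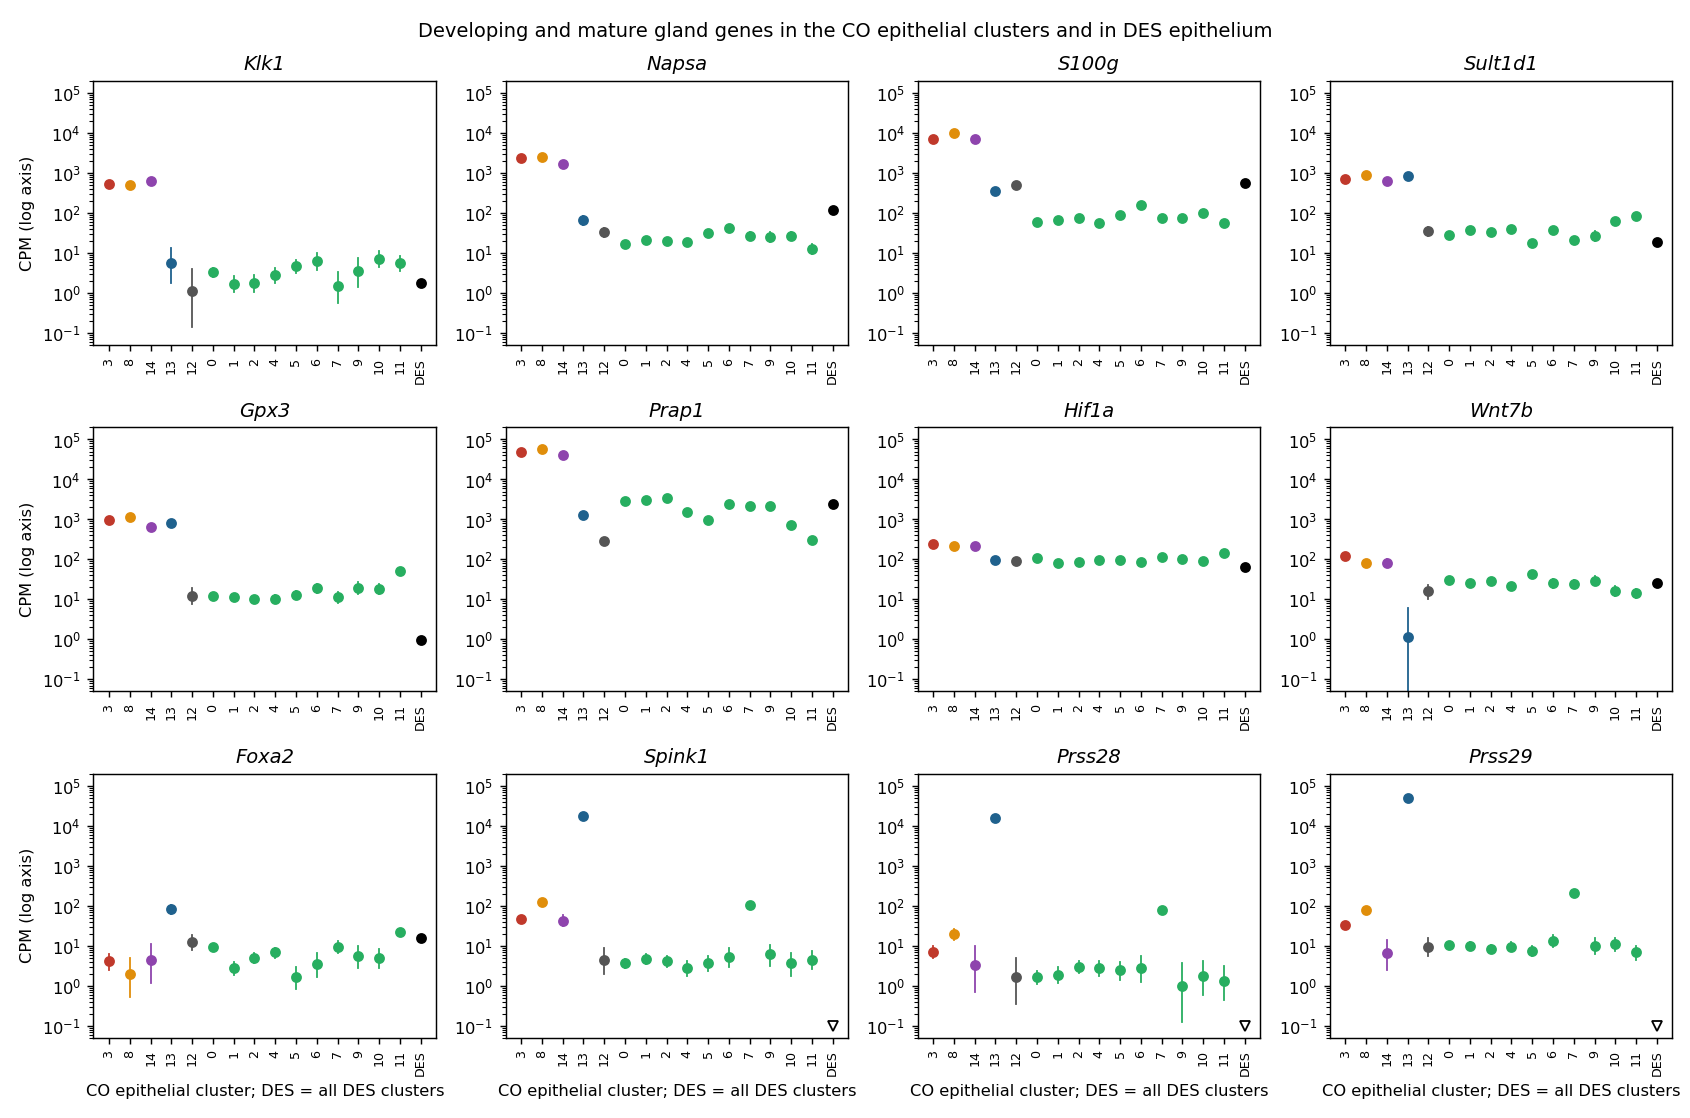
Level of the 8 developing gland genes and 4 mature gland genes (CPM, log axis) in each CO epithelial cluster and in all DES epithelial clusters summed; points are levels from summed UMIs, bars are exact Poisson 95% intervals and open triangles mark groups with 0 UMIs. Clusters 3, 8 and 14 sit together for all 8 developing gland genes, while cluster 13 joins them for Sult1d1 and Gpx3 and stands alone for Spink1, Prss28 and Prss29.

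The levels of these 8 genes set clusters 3, 8 and 14 apart from the luminal clusters without exception. As the study named the gland clusters by genes of this list, that order is no independent evidence. In cluster 3 the median log2 ratio over luminal cells was 5.20, and all 8 genes were again at least 2-fold higher, beside 11.4% of the 8343 genes measured (14.5% were lower). Napsa did not exceed 41.6 CPM in any luminal cluster (cluster 6), Klk1 did not exceed 7.24 (cluster 10) and Gpx3 did not exceed 52.3 (cluster 11). The order of levels among the 15 clusters put cluster 3 at the top for Hif1a and Wnt7b and next after cluster 8 or 14 for most of the others. The intervals of Klk1 in clusters 3 and 14 did not meet, but those of S100g did (7162 and 7109 CPM).

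Shares of cells with a UMI, compared after thinning to 3000 UMIs, showed how evenly the markers were spread. Napsa was found in 97.5% of cluster 3 cells (interval 94.4 to 99.2%), S100g in 97.1%, Sult1d1 in 84.3%, Gpx3 in 81.9% and Klk1 in 47.5% (40.5 to 54.6%). Without thinning the shares were 100% for Napsa, 99.5% for S100g and for Sult1d1, 98.0% for Gpx3 and 80.4% for Klk1. In thinned mesothelial cells, read as a background for free RNA except for Gpx3 and Klk1, which mesothelial cells of the DES library hold at higher levels than its epithelium, the shares were 4.45%, 20.3%, 2.23%, 18.4% and 11.03%. For Prap1 the mesothelial share was 69.1% and the luminal share 89.3%, so the 99.5% of cluster 3 says little, and its level is the better measure. Hif1a (46.1% against a mesothelial 21.2%) and Wnt7b (27.9% against 1.67%) were also above that background. Thinning left out 19 luminal cells, 2 of cluster 13 and none of clusters 3, 8 or 14.

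The genes with the largest ratio of cluster 3 to all other CO epithelial cells, among those of at least 50 CPM, came from several functions. Of those 2379 other cells 2095 were luminal, so the ratios below are mainly ratios to luminal epithelium. Secreted or matrix products were Pamr1 (113 CPM, 27.6-fold), Igfbp3 (an insulin-like growth factor binding protein, 356 CPM, 26.5-fold), Nmb (the neuropeptide neuromedin B, 362 CPM, 24.5-fold) and Olfm1 (olfactomedin 1, 795 CPM, 23.0-fold). Steroid and retinoid enzymes were Hsd11b1, which regenerates active glucocorticoid (537 CPM against 23.6, 22.8-fold), and Cyp26a1, which degrades retinoic acid (236 CPM, 23.0-fold). Transporters were Abcb1b, a P-glycoprotein efflux pump (935 CPM against 35.5, 26.3-fold, interval 25.1 to 27.6), and Atp6v0d2, a proton pump subunit (204 CPM, 23.8-fold). The remaining genes were the intermediate filament gene Krt17 (73.5 CPM against 1.80, 40.8-fold), the phosphatase gene Dusp2 (37.8-fold), Efhd1 (25.2-fold), Cys1 (21.4-fold), Scg5 (20.9-fold), Klk1 (21.7-fold) and Napsa (21.3-fold). All 15 were chosen by this ratio, which is therefore a description. Abcb1b, Igfbp3, Olfm1, Pamr1, Dusp2, Cys1 and Scg5 were higher in cluster 3 than in each of the other 14 clusters, a ranking that leaves counting error aside. Over the developing gland cluster 14 the margin was small. None of the 15 genes was among the 10 largest ratios of cluster 3 to cluster 14, the smallest of which was 2.63-fold.

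The 10 smallest ratios came from genes of varied function. Tmprss11d, an airway-type serine protease, was 49.7-fold lower in cluster 3 (1.64 CPM against 81.3), the water channel gene Aqp4 29.6-fold lower (2.25 against 66.6) and the death ligand gene Tnfsf10 21.3-fold lower. Sprr2a3, of the small proline-rich family, stood at 54.4 CPM against 1133, and its close paralogs make that value uncertain. Slc16a14, Adgrg7, Lrmp and Tnip3 were 17.9-fold to 19.2-fold lower, and the mature gland proteases Prss28 and Prss29 completed the 10. The 8 genes that the study used for luminal epithelium, chosen on these same cells, were all at least 2-fold lower (median log2 ratio -3.81), beside 14% of all genes.

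Against all other CO epithelial cells, most of them luminal, proteases and their inhibitors were higher more often than lower. Against cluster 8, 1 of 19 proteases was higher and 2 lower, and 2 of 15 inhibitors were higher and 1 lower. The shares of all genes in that comparison were 4.3% and 1.43%. Of 20 proteases that reached 10 CPM, 9 were at least 2-fold higher than in the other CO epithelial cells and 4 were lower, beside the 10.2% higher and 14% lower of all genes. The higher ones included the label markers Klk1 and Napsa. Others were the matrix metalloprotease gene Mmp7 (669 CPM against 58.8), the lysosomal cathepsin gene Ctsb (2264 against 787) and Adamts1 (52.0 against 2.64). Of 16 protease inhibitors, 5 were higher and 3 lower. Wfdc2, a whey acidic protein of secretory epithelia, led them at 5791 CPM against 2374, and Wfdc15b stood at 78.4 against 9.86. Of 26 genes of the endoplasmic reticulum and secretion, 3 were higher (Xbp1, Dnajb9 and Atf4) and 1 lower (Agr2, 2.05 against 19.5), a share of higher genes near that of all genes.

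Genes of steroid and solute handling stood on both sides of the other CO epithelial cells, and the shares of all genes to set these counts against were again 10.2% higher and 14% lower. Of 11 genes of sulfation and steroid metabolism, 5 were higher and 2 lower, and Srd5a1, the steroid 5-alpha-reductase gene, stood at 168 CPM against 11.7. Of 24 genes of calcium and ion transport, 6 were higher and 7 lower. The higher members included the water channel gene Aqp8 (428 CPM against 28.0), the carbonic anhydrase gene Car4 (228 against 11.7) and the sodium channel subunit gene Scnn1b (42.4 against 3.25). The lower members included the chloride channel gene Cftr (21.3 against 113), Clca1 (119 against 1520) and the calcium entry channel gene Trpv6 (64.3 against 194). S100g, which carries calcium inside the cell, and Trpv6 thus stood in opposite directions. Against cluster 8, 0 of 9 genes of sulfation and steroid metabolism were higher and 1 lower, and 0 of 21 transport genes differed 2-fold. The shares of all genes there were 4.3% higher and 1.43% lower.

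Steroid receptors were not uniformly high. Against cluster 8, 0 of 12 receptor and estrogen-responsive genes differed 2-fold, beside 4.3% of all genes higher and 1.43% lower. Esr1, the estrogen receptor alpha gene, stood at 244 CPM in cluster 3 and 226 CPM in the other cells, whereas Pgr, the progesterone receptor gene, stood at 15.1 against 79.9. Of 14 receptor and estrogen-responsive genes, beside 10.2% higher and 14% lower of all genes, 3 were higher (Igf1r, Ramp3 and Aqp8) and 7 lower, among them the secreted defence proteins Ltf (378 against 2456) and Lcn2 (759 against 7723) and the mucin gene Muc1 (46.5 against 454). Defence and mucin genes as a list had 3 of 21 higher and 11 lower (median log2 ratio -1.22). The 3 higher ones were Defb1 (26.2 CPM against 0.785), Ccl20 (11.7 against 0.514) and Tff2 (10.0 against 0.541). Interferon-stimulated genes had 12 of 16 lower (median log2 ratio -2.80), such as Ifit1 (5.12 against 59.3), and 1 higher, Ifit3 (20.3 against 3.34), whose near-identical copy Ifit3b makes its level uncertain.

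Transcription factors of the female tract had 6 of 24 higher and 5 lower, and for these and the lists that follow the shares of all genes were 10.2% and 14%. Pax8 (181 CPM against 69.0), Foxo1 (159 against 49.7) and Tfcp2l1 (231 against 87.6) were among the higher ones. In the Wnt lists, Wnt7b was higher and Wnt4 lower (6.14 against 52.1) of 3 ligands, and the receptors Fzd10 (27.2 against 7.59) and Lgr5 (12.7 against 2.16) were higher of 7. The targets and inhibitors Myc (70.6 against 16.2) and Znrf3 (19.4 against 5.30) were higher of 7, and Tcf7l2 and Sfrp1 were lower. Glycolytic enzymes Ldha (323 against 1022), Eno1 and Pgk1 were lower while the hypoxia-responsive Adm (237 against 35.8), Pfkfb3 and Slc2a1 were higher, giving 7 higher and 9 lower of 27. Of 28 glutathione and redox genes, 9 were lower and 2 higher (Gpx3 and Gstm5), and Gpx1 stood at 492 against 2203. Against cluster 8, 1 of 25 redox genes was higher and 2 lower, and 3 of 26 hypoxia and glycolysis genes were higher and 0 lower. In the same comparison 0 of 2 Wnt ligands and 0 of 7 receptors differed 2-fold, and 1 of 6 targets and inhibitors was higher and 0 lower. The shares of all genes there were 4.3% and 1.43%. Ribosomal protein genes took 28.5% of cluster 3 UMIs and 21.6% of those of the other cells.

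Markers of other cell types stood at similar levels in cluster 3 and the other CO epithelial cells, with leukocyte genes the furthest apart. The smooth muscle list had 1 of 6 genes at 10 CPM, Acta2, at 14.1 CPM against 7.20. Red cell markers summed to 1364 CPM against 1350.4 and stromal markers to 442 against 394, no stromal, mesothelial, smooth muscle or red cell marker differed 2-fold, and no endothelial, basal or ciliated marker reached 10 CPM. Of 9 leukocyte markers, 2 reached that level: Ptprc, the CD45 gene, at 50.1 CPM against 7.04 (37.5 in cluster 8 and 72.7 in cluster 14), and Laptm5 at 12.9 against 104. Their part in the differences above was not tested.

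Cluster 8, the other large developing gland cluster, had the same gland genes at similar levels. None of the 8 developing gland genes differed 2-fold between clusters 3 and 8 (median log2 ratio -0.15), beside 4.3% of 7926 genes higher in cluster 3 and 1.43% lower. S100g was 7162 CPM in cluster 3 and 10263 in cluster 8, Prap1 49058 and 57405, Napsa 2347 and 2466, and Klk1 530 and 496. Immediate-early genes are transcribed within minutes of growth factor signals, stress or handling of cells, and 16 of the 19 immediate-early and heat shock genes were at least 2-fold higher in cluster 3 (median log2 ratio 2.56).

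Among them, Atf3, a stress-induced transcription factor gene, stood at 860 CPM in cluster 3 and 40.0 in cluster 8 (21.5-fold, interval 17.3 to 27.1). Nr4a1, an orphan nuclear receptor gene, was 13.99-fold higher, and Socs3, a cytokine signal inhibitor gene, 11.01-fold. Fos stood at 2141 CPM against 382, Jun at 1292 against 166 and Egr1 at 915 against 126. Outside that list, the 10 largest ratios also held Egr3 (86.2 CPM against 2.96, 29.1-fold), Krt17 (24.8-fold), Arc (16.4-fold), the vasoactive peptide gene Adm (16.02-fold), Dusp5 (13.3-fold), Klf6 (1597 against 122, 13.1-fold) and Plaur, the urokinase receptor gene (11.9-fold). Cldn4, a tight junction gene that belongs to the simple epithelial list, stood at 564 CPM against 55.8.

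Fewer genes went the other way, though their number rose from 113 to 189 when the 20 most abundant genes were left out of the totals. Acod1, the itaconate-producing enzyme gene of stimulated macrophages and epithelium, was 6.92-fold higher in cluster 8 (53.8 CPM against 7.78), and the long noncoding RNA Yam1 6.46-fold. Lars2, Slc31a2, Tgfb2, Anpep, Kap, the chemokine gene Cxcl17 (418 CPM against 144) and an unnamed transcript listed as RP23-81C12.3 were 2.61-fold to 3.13-fold higher in cluster 8. The trypsin inhibitor gene Spink1 stood at 121 CPM in cluster 8 and 47.7 in cluster 3.

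**Figure D2:**
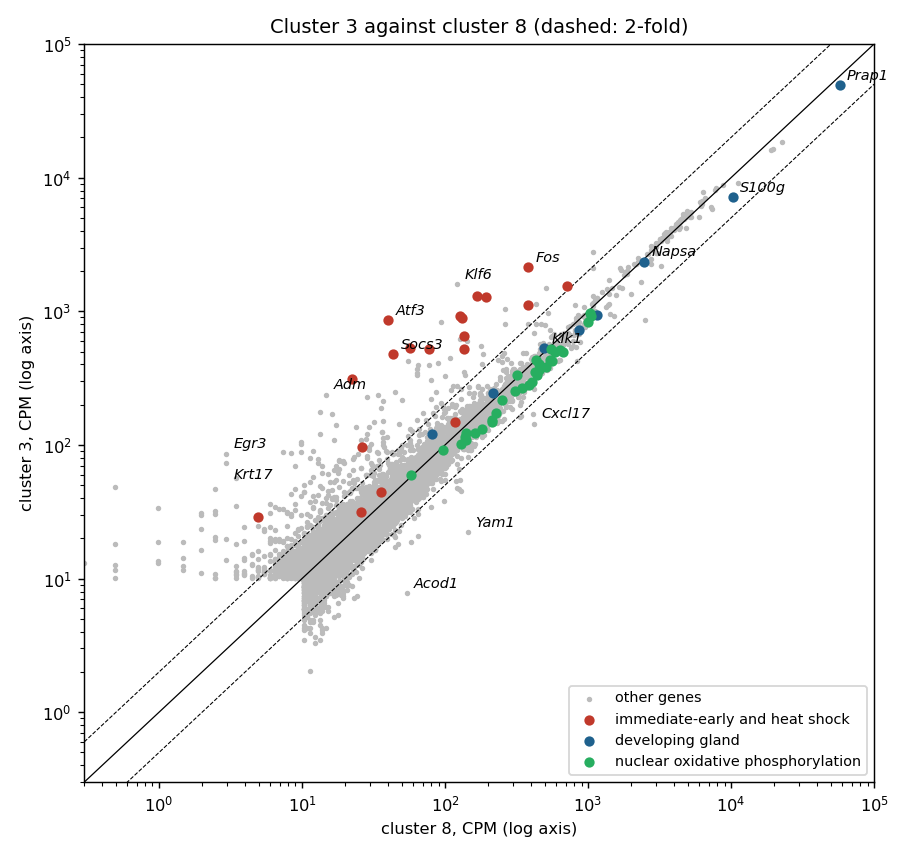
Every gene of at least 10 CPM in cluster 3 or cluster 8, with cluster 8 on the horizontal and cluster 3 on the vertical log axis in CPM; the solid line marks equal levels and dashed lines 2-fold differences. The 8 developing gland genes lie near equality (Prap1 49058 and 57405), whereas 16 of 19 immediate-early and heat shock genes lie above the upper dashed line.

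The difference in immediate-early genes was also seen per cell, with quartiles apart (1.08 to 1.65% in cluster 3 and 0.138 to 0.375% in cluster 8) but full ranges that overlapped. The clusters were formed on expression of the same cells, so agreement among their cells is no independent evidence. They took a median of 1.33% of the UMIs of a cluster 3 cell (range 0.255 to 3.06%) and 0.224% in a cluster 8 cell (0.0397 to 1.32%). The same measure was 1.02% in cluster 14, 0.708% in cluster 13, 1.15% in luminal cluster 0, 0.182% in luminal cluster 1 and 0.0988% in DES epithelial cells. High and low clusters were therefore found in the luminal as in the gland epithelium. Of the 341 genes at least 2-fold higher in cluster 3 than in 8, 264 reached 10 CPM in luminal cluster 0 or 1, and 143 of these (54.2%) were also at least 2-fold higher in cluster 0 than in cluster 1. Over all genes measured in both pairs the share was 192 of 6969 (2.76%). The part of these transcripts in the separation of clusters 3 and 8 was not tested.

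**Figure D3:**
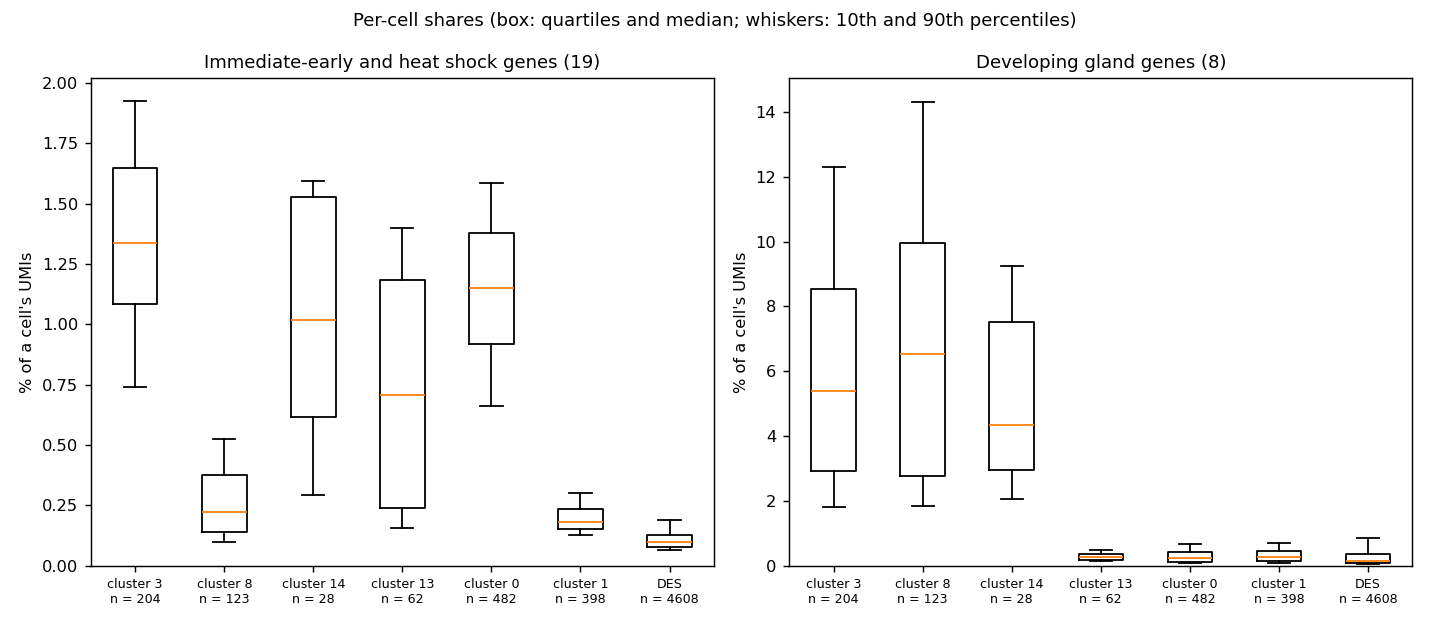
Share of the UMIs of each cell, in percent, taken by 19 immediate-early and heat shock genes (left) and by 8 developing gland genes (right) in clusters 3, 8, 14, 13, 0 and 1 and in all DES epithelial cells; boxes give the quartiles and median and whiskers the 10th and 90th percentiles. Cluster 3 has a median of 1.33% against 0.224% in cluster 8 on the left, while both overlap widely on the right.

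The clustering that the study made on CO and DES cells together put cluster 3 with the progenitors and apart from cluster 8. Of the 204 cells, 184 (90.2%, interval 85.3 to 93.9%) fell in its cluster 13, with 27 of the 28 progenitor cells, and 20 fell in its cluster 17, where 112 of the 123 cells of CO cluster 8 lay. None of 5255 DES epithelial cells was in either, where a floor of 3 cells would be a share of 0.0571%. The study saw almost no overlap of CO and DES cells in this clustering, so that absence is not particular to these clusters. As clustering used expression of the same genes, these counts describe the labels and do not test them.

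Cluster 13, the mature gland, shared only part of the cluster 3 pattern. Of the 8 developing gland genes, 6 were at least 2-fold higher in cluster 3, beside 8.84% of 8658 genes, and 14.7% of the genes were lower. Sult1d1 (727 CPM in cluster 3 and 847 in cluster 13) and Gpx3 (942 and 807) were the exceptions. The largest ratios belonged to Hsd11b1 (537 CPM against 4.49, 120-fold with an interval of 46.7 to 439), Klk1 (94.3-fold), Mmp7 (66.2-fold), Olfm1 (59.0-fold), Efhd1 (48.0-fold), Igfbp3 (45.3-fold), Nmb (40.3-fold) and Prap1 (37.5-fold). Car4 stood at 228 CPM against a single UMI, and Ptgs2, the inducible cyclooxygenase gene, at 122 CPM against 3 UMIs.

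In the opposite direction, all 6 mature gland genes were at least 2-fold lower in cluster 3 than in 13. Foxa2, Spink1 and Prss29 were the study's mature gland markers and Aldh1a1 a stem cell marker that it also described there, and Prss28 and Cxcl15 were added from general knowledge of uterine glands. Cluster 13 was named by such markers, so this direction is no independent evidence. Prss28 and Prss29, implantation serine proteases, stood at 7.16 and 34.2 CPM in cluster 3 and at 15773 and 51277 CPM in cluster 13. Spink1 stood at 47.7 against 17834. Scgb3a1, a secretoglobin gene, was 444-fold lower (1.02 CPM against 455), and Krt83 425-fold lower. Lyz1 and Ttr had 0 UMIs in cluster 3 and 122 CPM each in cluster 13, so each was at least 199-fold lower against a floor of 3 UMIs over the cluster, a value that leaves out the counting error of the 109 UMIs of each in cluster 13, and Lyz1 has a close paralog in Lyz2. Bpifb5, Hp and Dkk3 had 1 to 3 UMIs in cluster 3 and between 102 and 269 CPM in cluster 13. Immediate-early genes were 7 of 19 higher in cluster 3, with a median log2 ratio of 0.77.

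Against the 28 progenitor cells of cluster 14, 0 of the 8 developing gland genes were 2-fold apart (median log2 ratio 0.24). Cell cycle genes were. All 15 G2/M genes and 14 of 15 S phase genes were at least 2-fold lower in cluster 3, beside 8.74% of 8317 genes lower and 2.55% higher. The study recognised cluster 14 as progenitors by Top2a and Mki67, both G2/M genes of this list, so this direction is no independent evidence. Top2a, the topoisomerase of dividing cells, stood at 11.5 CPM against 370, and was seen in 2.94% of thinned cluster 3 cells and in 71.4% of thinned cluster 14 cells. Nusap1 was 151-fold lower and Ccnb1 74.0-fold. The largest ratios in favour of cluster 3 were smaller, led by Gdpd3 (3.86-fold) and Thbs1 (3.45-fold), and included Ltf (378 CPM against 136).

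Within cluster 3 the gland genes varied widely from cell to cell. Prap1 took between 0.0601% and 17.5% of the UMIs of a cell with a median of 4.27%, and the 8 developing gland genes together took 0.460 to 19.3% with a median of 5.38%. The study also placed these cells in its trajectory clustering of the CO gland, where 61 fell in group 1, 52 in group 2, 45 in group 3, 21 in group 8, 12 in group 0 and 13 in groups 4, 6 and 9. The groups were formed on the same genes, so their levels are descriptions.

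Group 3 had the lowest developing gland share of the larger groups (3.82% of UMIs) and group 8 the highest (8.09%), with 6.86% in group 1 and 7.59% in group 2. Among these 4 groups Klk1 was highest in group 2 (1147 CPM, 1082 to 1215) and lowest in group 8 (160 CPM). Sult1d1 (666 CPM in group 2 and 1271 in group 8), S100g (4363 and 10000.2) and Gpx3 (864 and 1569) were highest in group 8, with Sult1d1 and Gpx3 lowest in group 3 (567 and 592). The label markers therefore did not move together within the cluster. Group 2 also had more Spp1, the osteopontin gene (537 CPM against 204 in the rest of the cluster, 2.63-fold), and Tmem252 (3.27-fold). Group 3 had more Ltf (785 against 242, 3.24-fold), the stress cytokine gene Gdf15 (475 against 156) and the endothelin gene Edn1 (250 against 83.5), and less Hsd11b1 (231 against 640).

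Group 1 was marked by the gap junction gene Gjb2 (98.3 CPM against 23.3), Defb1 (50.4 against 14.5) and the protease inhibitor gene Timp3 (260 against 78.2), with Spp1 at 41.6 against 383. Group 8 had more Igfbp3 (1043 CPM against 298) and Ifit3 (73.2 against 15.8), and 28.2-fold less Spp1 (10.5 against 295). Immediate-early genes took 1.59, 1.26, 1.49 and 1.05% of UMIs in groups 1, 2, 3 and 8, and 0.583% in the 12 cells of group 0, the group that held 74 of the 123 cluster 8 cells.

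**Figure D4:**
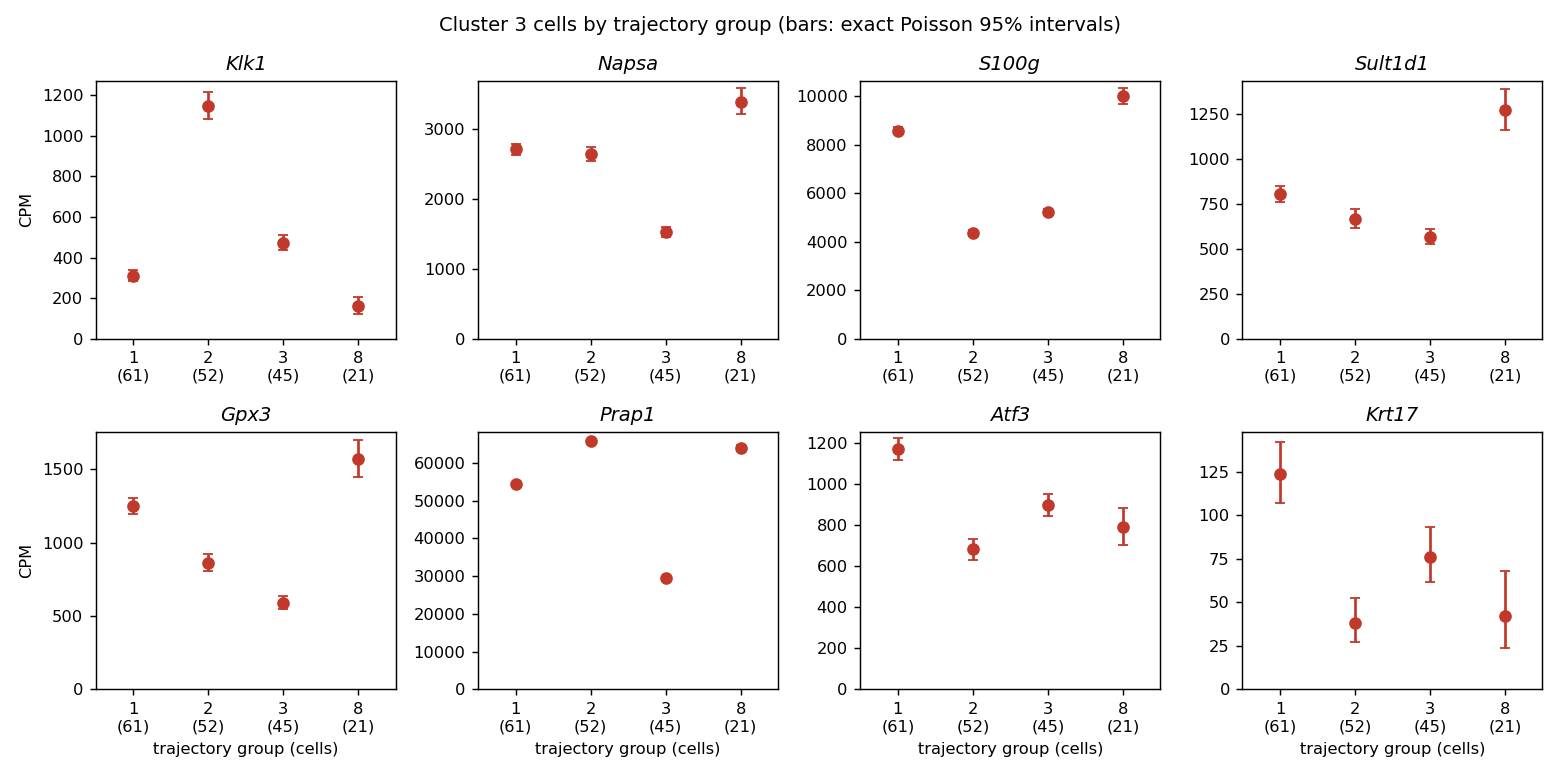
Levels in CPM (linear axes from 0) of 6 developing gland genes, Atf3 and Krt17 in the 4 larger trajectory groups of cluster 3, with cell numbers below each group and exact Poisson 95% intervals as bars. Klk1 peaks in group 2 at 1147 CPM, while S100g, Sult1d1 and Gpx3 peak in group 8.

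In DES epithelium the cluster 3 pattern was not found as a whole. All 8 developing gland genes were at least 2-fold higher in cluster 3 than in the 4608 cells of the 16 DES epithelial clusters, beside 11.8% of 8634 genes higher and 16.5% lower. The study named the gland clusters by genes of this list, so that direction is no independent evidence. Together the 8 genes summed to 3273 CPM in DES epithelial cells and 2651 CPM in CO luminal cells. Klk1 stood at 1.79 CPM over all DES clusters, and at 25.2 CPM in the highest of them. Gpx3 stood at 0.957 CPM and did not pass 2.34 CPM in any DES cluster, while Abcb1b did not pass 1.53 and Efhd1 did not pass 0.482. Napsa (119 CPM), S100g (571) and Prap1 (2471) had UMIs in every DES cluster, and Prap1 reached 8956 CPM in DES cluster 5. In mesothelial cells of the DES library they stood at 3.59, 17.2 and 54.2 CPM. S100g was seen in 55.2% and Napsa in 28.8% of thinned DES epithelial cells, beside 5.98% and 1.43% of thinned DES mesothelial cells and luminal CO shares of 17.7% and 5.92%. For Klk1 (24.4 CPM) and Gpx3 (69.3 CPM) the DES mesothelial cells were above the DES epithelium, so for these genes mesothelial cells do not give a background of free RNA. Immediate-early genes were 17 of 19 lower in DES cells (median log2 ratio of cluster 3 to DES 3.1), and endoplasmic reticulum genes 11 of 26. The endoplasmic reticulum list summed to 9083 CPM in cluster 3, 9020 in the other CO epithelial cells and 4898 in DES cells. That difference was thus shared by CO epithelium and not particular to cluster 3. Red cell and stromal markers summed to 1364 and 442 CPM in cluster 3 and to 556 and 131 in DES cells, and their part in these differences was not tested. Treatment, library and pool of mice cannot be told apart here.

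The sections gave the only replicated comparison, from mice that did not enter the clustering. They held 9117099 to 12506177 UMIs over 1357 to 1834 spots, and UMIs were summed per section and tested with edgeR, adjusting p over all 14098 genes. A section mixes cell types, so fewer gland cells and less RNA per cell cannot be told apart. Of the 21 genes in the 8 developing gland genes and 15 leading genes, Klk1 and Napsa being in both, 20 passed the filter on low counts and 3 were called, 2 higher in DES (2.67% of all genes) and 1 lower (2.63%).

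Klk1 had 58 and 28 UMIs in CO A and CO B and 2 and 3 UMIs in DES A and DES B, or 4.64, 2.54, 0.219 and 0.304 CPM. Klk1 thus fell by 3.92 on the log2 scale (SE 0.63, edgeR adjusted p = 0.0399). It was seen in 3.63% and 1.36% of CO spots and in 0.127% and 0.221% of DES spots. Within CO A it was highest in spot cluster 5 (9.01 CPM, interval 4.32 to 16.6), where Foxa2 (23.4 CPM) and Sult1d1 (36.0 CPM) also peaked. Only 10 UMIs stand behind that value, 17.2% of the Klk1 UMIs of that section, so most lay in other spots. In CO B Klk1 was highest in spot cluster 4 (4.11 CPM, 5 UMIs, interval 1.34 to 9.60), as was Foxa2 (11.5 CPM), while Sult1d1 was highest in spot cluster 9 (184 CPM). Spot cluster 2 of CO B held 53.6% of the Klk1 UMIs at 3.70 CPM (2.07 to 6.11), so it cannot be ranked below spot cluster 4.

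Krt17 went the other way, at 7.76 and 8.61 CPM in CO sections and 86.3 and 83.5 in DES sections, a log2 difference of 3.17 (SE 0.17, edgeR adjusted p = 0.0141). The CO spot clusters (of at least 50 spots) richest in the epithelial gene Epcam held 0 and 1.73 CPM of Krt17. Those of DES held 79.4 and 72.2 CPM, below the levels of their whole sections. Krt17 was highest in other spots, at 182 CPM in spot cluster 8 of DES A and 159 CPM in spot cluster 3 of DES B. In CO A, spot cluster 4 held 72.2% of the Krt17 UMIs at 76.0 CPM, and in CO B spot cluster 1 held 53.7% at 30.0 CPM. In single cells Krt17 stood at 2.80 CPM in DES epithelial clusters and 73.5 in cluster 3. The study had taken basal cells, those with both Krt14 and Trp63, out of the DES epithelium before clustering it, whereas the sections hold them, so these values are not of the same cells. Wnt7b stood at 35.0 and 22.4 CPM in CO and 109 and 97.7 in DES (log2 difference 1.63, SE 0.27, edgeR adjusted p = 0.0435). In single cells it stood at 120 CPM in cluster 3, 14.1 to 43.4 CPM in the luminal clusters and 26.3 CPM in DES epithelial cells. The sections thus reversed its order between cluster 3 and DES cells, while luminal and DES levels overlapped. Basal cells are part of these section values too. The simple epithelial genes summed to 0.494 and 0.297% of UMIs in CO A and CO B and to 0.505 and 0.548% in DES A and DES B; of these 9 genes Cldn4 rose (log2 difference 2.18, edgeR adjusted p = 0.0399).

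The other gland genes were not called by edgeR, although DESeq2 called Olfm1 and Gpx3 lower in DES (adjusted p = 8.62e-05 and 0.0349). For Prap1, Abcb1b, Pamr1 and Gpx3, among others, the 2 CO sections differed from each other more than the groups did. Prap1 stood at 2925 and 30907 CPM in CO sections A and B and at 1767 and 2949 CPM in their DES counterparts (log2 difference -3.02, SE 1.11, edgeR adjusted p = 0.188), so that CO A lay within the DES range. Abcb1b stood at 1.199, 54.7, 2.41 and 1.82 CPM and Pamr1 at 21.9, 202, 47.8 and 39.5 CPM in the same order, with CO B alone far above the rest. Olfm1 (48.3, 236, 23.6 and 22.2 CPM, log2 difference -2.83, SE 0.76, edgeR adjusted p = 0.107) and Sult1d1 (8.80, 73.7, 1.21 and 4.96 CPM, -3.90, SE 1.216, adjusted p = 0.141) were lower in both DES sections than in both CO sections. Gpx3 stood at 155, 613, 185 and 89.9 CPM and Napsa at 13.5, 47.0, 24.3 and 10.1 CPM in the same order, so that CO A lay within the DES range for both. Gpx3 and S100g gave edgeR adjusted p-values of 0.234 and 0.369, and Hif1a 0.891.

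Not all of these genes belonged to epithelium in the sections. Gpx3 stood at 35.9 CPM in the spot cluster of CO A richest in Epcam and at 246 in the one poorest in it, and at 52.6 and 853 in CO B. S100g in CO A was likewise higher in the spots poor in Epcam (821 against 102 CPM), but in CO B it was higher in the spots rich in it (760 against 410 CPM in the poorest). Prap1 followed Epcam, with 5243 against 151 CPM in CO A and 55917 against 2564 in CO B. Olfm1 and Pamr1 in CO A were highest in the spots poorest in Epcam (120 and 65.5 CPM). In CO B Olfm1 was highest in the spots richest in Epcam (421 CPM), but Pamr1 in spot cluster 6 (518 CPM), stroma in the study. The 15 leading genes summed were highest in those CO A spots (237 CPM). In CO B their sum was 847 CPM in spot cluster 6 and 789 CPM in the spots richest in Epcam. Section totals of Gpx3, Pamr1 and the leading genes together, and in CO A those of S100g and Olfm1, therefore include spots poor in epithelium.

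Leaving out 1 DES section leaves only the CO sections to give the spread, so only log2 differences are given here for those fits. Without either DES section the log2 differences of Klk1, Krt17, Wnt7b and Cldn4 kept their signs, at -4.22 to -3.71 for Klk1 and 3.14 to 3.16 for Krt17. With the section letter as a replicate block, Klk1 (-3.86) and Cldn4 (2.22) lost their call and Sult1d1 (-3.69) gained one. Scaled to the simple epithelial genes instead of all genes, Wnt7b (1.43) lost its call, and Pamr1, Abcb1b, Olfm1, Sult1d1, Gpx3 and Prap1 were called lower in DES.

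**Figure D5:**
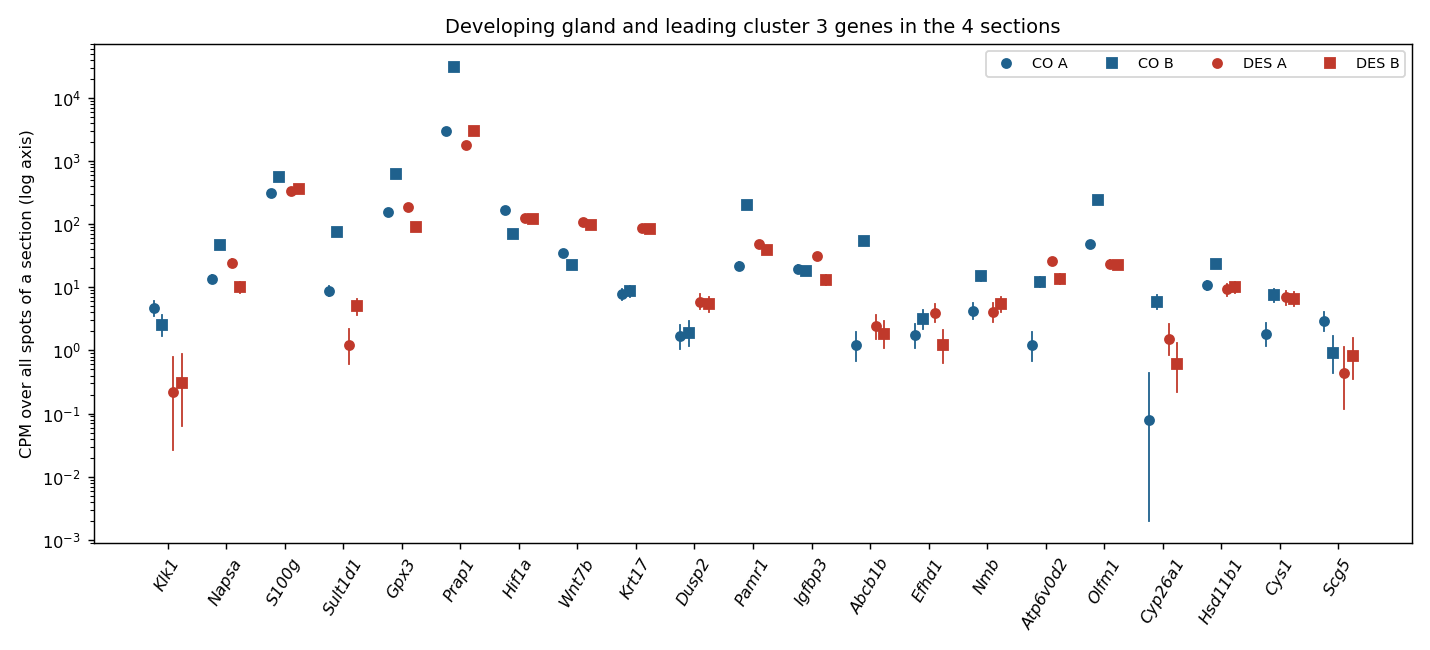
Level of 8 developing gland and 15 leading genes (21 in all) in each section, as CPM over all spots on a log axis; circles are section A, squares section B, blue CO and red DES, and bars are exact Poisson 95% intervals. Klk1 is below 1 CPM in both DES sections, Krt17 is above 80 CPM in both, and Prap1 in CO B (30907) stands far above the other 3 sections.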

How the data were processed

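Raw UMI counts per gene and cell or spot were used as deposited. Per the labels and the study's methods, the authors prepared libraries with 3′ single-cell or Visium kits, demultiplexed them with bcl2fastq 2.20.0.422, and counted UMIs against mm10 and GENCODE genes with Cell Ranger 3.0.1 or Space Ranger 1.2.2. They screened for barcode swapping, removed doublets, normalized with SCTransform and clustered with Seurat, and their cluster numbers were taken from the deposited metadata. The metadata also held UMI, gene and read counts per cell, a saturation fraction deposited by the authors, and cell type labels.

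Of 2629 cells labelled with a CO epithelial cluster, 46 had no count column and were left out. UMIs were summed per group of cells and expressed as CPM. With 1 library per treatment and clusters formed on the same genes, no test was made between cells. A gene was called when it reached 10 CPM in either group and its ratio was at least 2 or at most 0.5. The floor for a group without UMIs was 3 UMIs over the group, and all intervals cover counting error only. Shares of cells were compared after thinning to 3000 UMIs with 95% Clopper-Pearson intervals.

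Section UMIs were summed over spots and tested with edgeR 4.0.16 (TMM, filterByExpr, quasi-likelihood test, no covariate, Benjamini-Hochberg adjustment at 0.05) in R 4.3.3, with DESeq2 1.42.0 as an alternative. The fit was tested on simulated data. Nothing says that sections of a group came from separate litters, so p-values measure only the spread between these mice. Genes named were those of fixed lists, the 15 largest and 10 smallest ratios against all other CO epithelial cells, the 10 largest and 10 smallest against clusters 8 and 13 (at least 50 CPM in either group, without Xist), and the 10 most abundant genes. Some ratios against cluster 14, between trajectory groups and of DES clusters were named by the same measure after their values were seen. The cluster, its markers and the gene lists were chosen with earlier results of these data known. Other steps used Python 3.11.15 and scipy 1.17.1. Promoters were matched by symbol for 21 of 27 genes sought, and gene positions were those of GENCODE on GRCm38.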

Additional observations from a re-analysis of the deposited data

How the results depend on the processing

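The 8 developing gland genes kept their direction against all other CO epithelial cells under each of the 7 alternatives, and 16 of the 19 immediate-early and heat shock genes stayed at least 2-fold higher than in cluster 8 under each alternative except the minimum of 50 CPM, where 15 of 16 tested did. Counts moved mainly with the expression minimum: at 50 CPM, 315 genes were higher and 508 lower than in the other cells, 152 and 18 against cluster 8, and 279 and 387 against cluster 13. Totals without the 20 most abundant genes raised the count lower than in cluster 8 from 113 to 189. The median share of cluster 3 cells with a UMI over the 8 genes was 83.1% at 3000 UMIs, 97.1% at 10000 UMIs (191 cells) and 98.8% without thinning.

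For the sections, edgeR called 376 genes higher and 371 lower in DES. DESeq2 called 822 and 969, and scaling to the simple epithelial genes, which moved the median log2 difference to -0.30, called 382 and 707. Leaving out 1 section gave 3 to 1311 higher and 0 to 1508 lower, the fewest without DES B (3 and 0, with 1712 genes at an unadjusted p under 0.05 by edgeR) or DES A (14 and 0, with 1722). The lone section left in a group was then assumed to vary like the other group. Section letters did not pair the samples (correlation of deviations -0.0254), and a replicate block on the letter called 298 and 229. The cause of these shifts was not tested. No called value given above reversed, but single called genes did: at most 3 of 2017 against the other cells (luminal clusters only), 1 of 454 against cluster 8 and 2 of 2037 against cluster 13 (mean over cells). With a median of 4116 to 6656 UMIs per spot, genes such as Klk1, with 2 to 58 UMIs per section, rest on few molecules.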

Other observations

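The 10 most abundant genes of cluster 3, mitochondrial and ribosomal protein genes aside, mixed secretory with housekeeping transcripts. Tpt1, a translationally controlled protein gene of growing cells, stood at 8734 CPM in cluster 3 and 8789 in cluster 8, and Malat1, a nuclear noncoding RNA, at 8358 CPM in cluster 3, 7846 in cluster 8 and 15222 in cluster 13. The elongation factor gene Eef1a1 stood at 7814 CPM against 5822 in luminal cells. Actg1, the cytoplasmic gamma-actin gene, differed between the developing gland clusters, at 2789 CPM in cluster 3, 2643 in cluster 14 and 1088 in cluster 8.

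Few nuclear genes of oxidative phosphorylation differed 2-fold. Of 32 genes, 2 were at least 2-fold lower than in the other CO epithelial cells (Ndufa4, 494 CPM against 1501, and Cox5a, 383 against 1079), beside 14% of all genes, and none was higher, with a median log2 ratio of -0.51 against -0.13 over all genes. Against clusters 8 and 13 none was 2-fold apart, with medians of -0.31 and -0.43. Of 8 MHC class I genes, 3 were at least 2-fold lower (Tap1, Psmb8 and Psmb9) and none was higher, and the list summed to 1132 CPM against 1486. Of 7 MHC class II genes 1 reached 10 CPM in this comparison, and 6 did against DES epithelial cells, all 6 at least 2-fold lower in cluster 3 beside 16.5% of all genes. The former was Cd74, the invariant chain gene, at 7.16 CPM against 30.2 in the other CO epithelial cells and 541 in DES epithelial cells.

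Of the 6 genes in the epithelial stem cell list, Lgr5 and Gstm7 reached 10 CPM. Lgr5 was at least 2-fold higher than in the other CO epithelial cells, beside 10.2% of all genes. Aldh1a1, a retinaldehyde dehydrogenase gene, stood at 3.07 CPM in cluster 3 and 41.5 in cluster 13, and Axin2, a Wnt target gene, at 7.37 and 34.8. Lgr5, an R-spondin receptor gene, stood at 12.7 CPM in cluster 3, 9.88 in cluster 8, 10.1 in cluster 13 and 29.8 in cluster 14, and at 0.498 in luminal cells.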
